A study of Arabidopsis thaliana with 13 samples.

Results

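The 8 Arabidopsis genes described here were chosen, with results of these arrays known, because their transcripts were low in the siliques of maternal excess crosses. They are AT2G02515, AT4G35725, AT5G26250, AT3G13370, AT3G03410, AT2G44250, AT1G23960 and AT2G32160, all protein-coding loci in the TAIR10.1 gene table, and each was read by 1 of the 13513 probe sets that the platform annotation gives to a single gene. Of the 8, 6 had low signals in both maternal excess crosses, which describes the choice and does not test it. AT1G23960 and AT2G32160 were low in 4xX2x and stood at the level of the balanced cross in 6xX2x, so they are treated below as a pair of their own.

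RNA of whole siliques had been hybridised to 13 Affymetrix ATH1 arrays. Crosses are named with the seed parent first. The 6 crosses, with 2 biological replicates each, were harvested 5 days after pollination and pooled from several plants. In 2xX2x, the balanced cross, both parents were diploid C24. In 2xX4x and 2xX6x (paternal excess) a diploid C24 seed parent received pollen of a tetraploid C24 or a hexaploid Col-1 plant. In 4xX2x and 6xX2x (maternal excess) a tetraploid C24 or a hexaploid Col-1 seed parent received pollen of diploid C24. The C24 seed parents were male sterile through the A9-barnase transgene, whereas the hexaploid Col-1 plants were emasculated. In fis1X2x the seed parent was homozygous for fis1-3, an allele of MEDEA in accession Ler, and the pollen came from diploid C24. The last array, with no replicate, held unfertilised siliques of msi1 (allele msi1-2, C24) taken 7 days after flower opening. Its plants were the male-sterile F1 of msi1 mutants and C24 A9-barnase. Accession and genotype cannot be told apart in 2xX6x, 6xX2x and fis1X2x. Whole siliques hold silique wall, seed coat, embryo and endosperm, so fewer cells of a type and less RNA per cell cannot be told apart either.

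The endosperm is the seed tissue that feeds the embryo, and its growth depends on the balance of maternal and paternal genomes. Extra maternal genomes give a small endosperm that forms cells early, and extra paternal genomes give a large one in which cell formation is late or fails. MEDEA and MSI1 belong to the Polycomb complex of the seed, which keeps genes silent and is itself part of parental imprinting. Of the 8 genes, AT5G26250 is annotated as a sugar transporter, a class of membrane protein that moves sugars into or out of cells. AT3G03410 is annotated as a calmodulin-related protein that binds calcium. AT2G02515 and AT4G35725 are listed as unknown proteins, and no role is given here for the other 4.

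Values are MAS5 signals, a linear measure of probe set brightness that the authors scaled to the same trimmed mean on every array. Median signals of the arrays lay between 38.0 and 46.3. Differences were taken after adding 7.4 to every signal and log2 transformation, so that changes of dim genes come out too small, and carry standard errors from limma over 12 arrays. A difference was called at an adjusted p below 0.05 over 15982 probe sets. The members were chosen on 4xX2x, 6xX2x and their contrast with paternal excess, so those differences, and 6xX2x against 4xX2x, are given as descriptions. The comparisons with a p share the 2xX2x, 2xX4x and 2xX6x arrays with that choice, and only the fis1X2x and msi1 arrays had no part in it.

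**Figure D1:**
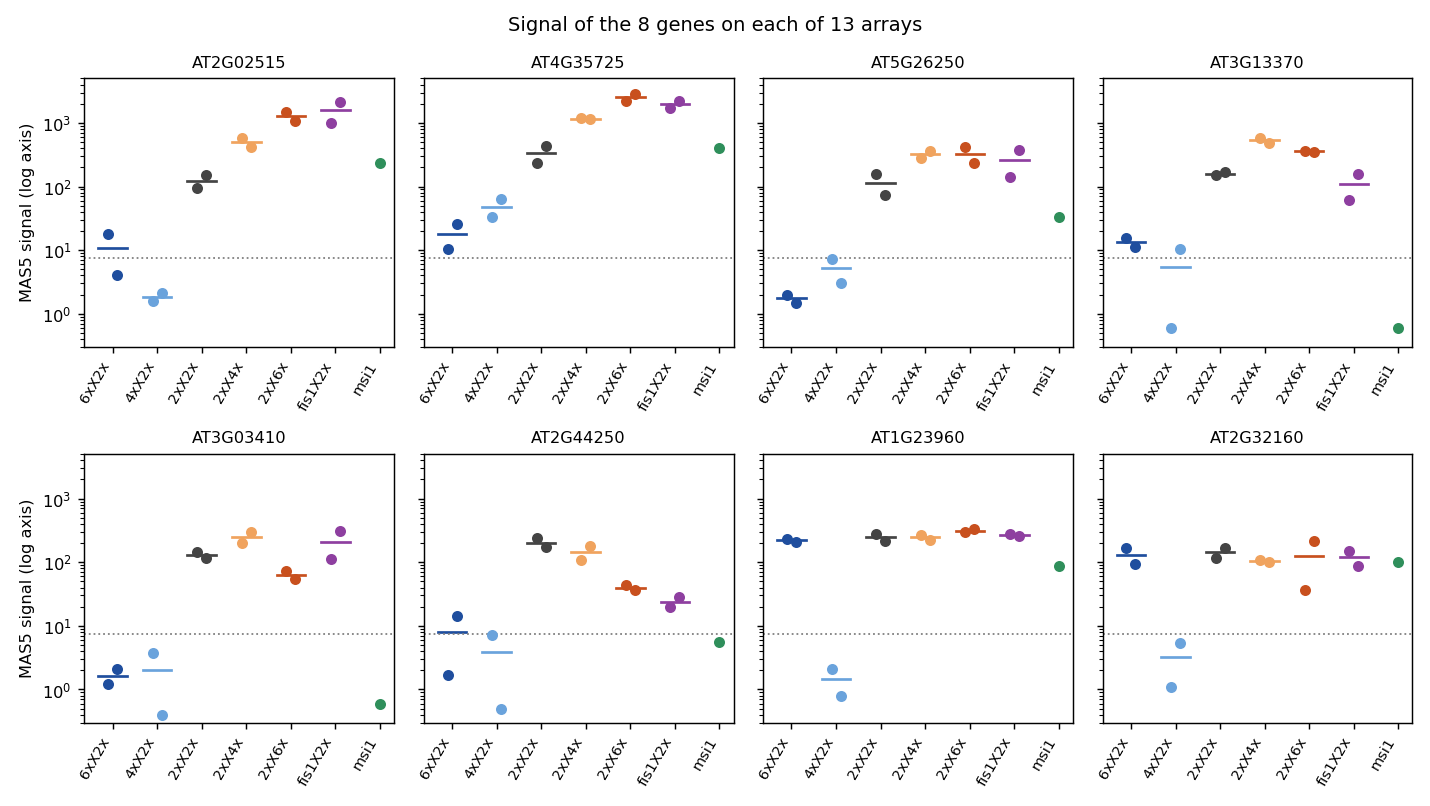
MAS5 signal (log axis) of the 8 genes on each of 13 arrays. Points are arrays, bars are means of 2 arrays, and the dotted line is the offset of 7.4. The first 6 genes are low in 6xX2x and 4xX2x, and AT1G23960 and AT2G32160 in 4xX2x alone.

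Signals of AT2G02515, an unknown protein, were lowest in maternal excess and highest in 2xX6x and fis1X2x. They were 1.6 and 2.1 in 4xX2x, 17.7 and 4.0 in 6xX2x, 94.4 and 150.9 in 2xX2x, 586.9 and 412.2 in 2xX4x and 1479.1 and 1086.4 in 2xX6x. The fis1X2x arrays gave 1012.5 and 2156.5, which spans the 2xX6x values, and the msi1 array gave 238.4. Apart from 2xX6x and fis1X2x, no groups overlapped. Against 2xX2x the log2 difference was -3.78 ± 0.44 in 4xX2x and -2.91 ± 0.44 in 6xX2x.

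AT4G35725, also an unknown protein, was likewise lowest in maternal excess and highest in 2xX6x and fis1X2x. Signals were 10.5 and 25.9 in 6xX2x, 33.1 and 63.4 in 4xX2x, 237.1 and 433.2 in 2xX2x, 1182.4 and 1142.6 in 2xX4x and 2221.9 and 2812.8 in 2xX6x. In fis1X2x they were 1738.0 and 2184.6, just under the 2xX6x arrays, and msi1 at 401.1 lay within the 2xX2x range. This was the one gene of the 6 that kept a signal above 7.4 on all 4 maternal excess arrays. Its log2 difference from 2xX2x was -2.62 ± 0.39 in 4xX2x and -3.75 ± 0.39 in 6xX2x.

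For the sugar transporter gene AT5G26250, all 4 maternal excess arrays were below 7.4. Signals were 2.0 and 1.5 in 6xX2x, 7.2 and 3.1 in 4xX2x, and 154.8 and 73.5 in 2xX2x. They were 279.9 and 362.6 in 2xX4x, 418.7 and 234.5 in 2xX6x, 140.2 and 377.2 in fis1X2x and 32.8 in msi1. The 3 groups 2xX4x, 2xX6x and fis1X2x overlapped one another, and the lower fis1X2x array fell within the 2xX2x range. The log2 difference from 2xX2x was -3.21 ± 0.47 in 4xX2x and -3.65 ± 0.47 in 6xX2x.

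AT3G13370 was highest in 2xX4x, with 568.9 and 490.3, followed by 2xX6x with 364.4 and 347.7. The 2xX2x arrays gave 150.8 and 166.7 and the fis1X2x arrays 61.2 and 155.0, which overlapped. Signals were 15.8 and 11.2 in 6xX2x, 0.6 and 10.4 in 4xX2x and 0.6 in msi1. The log2 difference from 2xX2x was -3.80 ± 0.43 in 4xX2x and -3.0 ± 0.43 in 6xX2x.

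The calcium-binding protein gene AT3G03410 stood above the balanced cross in 2xX4x and below it in 2xX6x. Signals were 203.4 and 299.3 in 2xX4x, 143.8 and 117.4 in 2xX2x and 72.7 and 55.3 in 2xX6x, with no overlap between these groups. They were 114.2 and 309.2 in fis1X2x, which overlapped 2xX2x and 2xX4x. In 6xX2x they were 1.2 and 2.1, in 4xX2x 3.7 and 0.4 and in msi1 0.6. The log2 difference from 2xX2x was -3.88 ± 0.41 in 4xX2x and -3.93 ± 0.41 in 6xX2x.

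AT2G44250 was highest in the balanced cross and lower towards either parental excess. Signals were 236.4 and 171.6 in 2xX2x, 109.2 and 178.5 in 2xX4x, 44.1 and 36.0 in 2xX6x and 19.5 and 28.6 in fis1X2x. They were 1.7 and 14.1 in 6xX2x, 7.2 and 0.5 in 4xX2x and 5.6 in msi1. The 2xX2x and 2xX4x arrays overlapped, and the 2xX6x and fis1X2x arrays lay below both and did not overlap. The log2 difference from 2xX2x was -4.28 ± 0.45 in 4xX2x and -3.90 ± 0.45 in 6xX2x.

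The remaining genes, AT1G23960 and AT2G32160, departed from the other 6. Signals of AT1G23960 were 2.1 and 0.8 in 4xX2x, 233.1 and 209.5 in 6xX2x and 274.6 and 217.7 in 2xX2x. They were 263.7 and 226.7 in 2xX4x, 294.0 and 330.0 in 2xX6x, 274.2 and 253.8 in fis1X2x and 88.3 in msi1. The crosses other than 4xX2x thus kept to a narrow band, with 2xX6x at its top. For this gene the log2 difference was -4.84 ± 0.23 in 4xX2x against 2xX2x, and 4.69 ± 0.23 in 6xX2x against 4xX2x.

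Signals of AT2G32160 were 1.1 and 5.4 in 4xX2x, 168.3 and 93.4 in 6xX2x, and 118.1 and 167.8 in 2xX2x. They were 108.5 and 102.3 in 2xX4x, 36.5 and 215.1 in 2xX6x, 151.3 and 87.7 in fis1X2x and 102.6 in msi1. Both 4xX2x arrays lay below all the others, and the 2xX6x arrays spanned the values of every group but 4xX2x. The 2xX4x and msi1 arrays lay below both 2xX2x arrays. The log2 difference was -3.83 ± 0.61 in 4xX2x against 2xX2x, and 3.67 ± 0.61 in 6xX2x against 4xX2x.

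In 6xX2x the log2 difference of AT1G23960 from 2xX2x was -0.14 ± 0.23, with a 95% interval from -0.64 to 0.36. For AT2G32160 it was -0.16 ± 0.61, with an interval from -1.51 to 1.19. The 4xX2x arrays of AT1G23960 lay 3.33 on the log2 scale below the lowest of the other 11 arrays, the largest such gap among 15982 probe sets. The gap of AT2G32160 was 1.78, at rank 7, and 22 probe sets had a gap of at least 1. This measure was chosen after the values were seen. The direct neighbours of AT2G32160 on the chromosome were not called in 4xX2x against 2xX2x, where AT2G32150 differed by -0.07 ± 0.59 (limma, adjusted p = 0.982) and AT2G32170 by -0.15 ± 0.28 (adjusted p = 0.902).

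**Figure D2:**
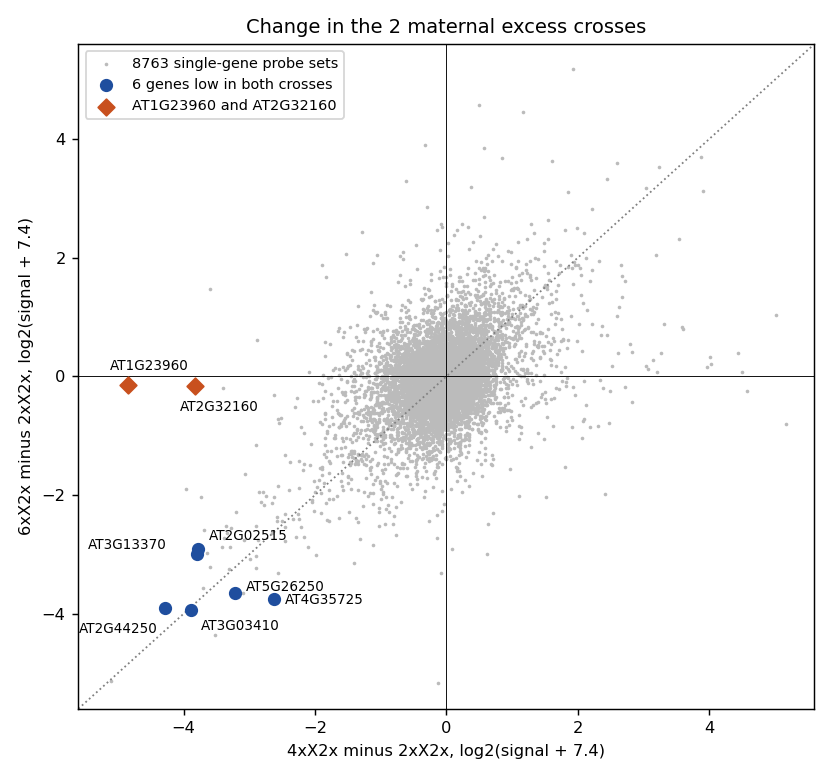
Log2(signal + 7.4) difference from 2xX2x in 4xX2x (x axis) and 6xX2x (y axis) for 8763 single-gene probe sets (grey), the 6 genes low in both crosses (blue circles) and AT1G23960 and AT2G32160 (orange diamonds). The dotted line marks equal change. The 6 genes lie near it at the lower left, and the pair lies near 0 on the y axis.

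Among the 8763 single-gene probe sets kept, 194 were at least 1 lower on the log2 scale in both maternal excess crosses, 52 at least 2 lower and 10 at least 3 lower. The 6 genes were all among the 52, and AT5G26250, AT3G03410 and AT2G44250 were among the 10. Ordered by the smaller of both falls, the 6 took ranks 2, 3, 8, 11, 14 and 24, and the pair ranks 1833 and 1915. Of the 24 signals of the 6 genes on maternal excess arrays, 15 were below 7.4, against 0 of 12 on the 2xX2x arrays. All 4 signals of the pair in 4xX2x were below 7.4, against 0 of 4 in 6xX2x. Signals this low have no reliable order, and the folds from them move with the offset. For the 6 genes, these ranks and counts describe the choice of the members and do not test it.

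In the selecting contrasts, 8 of 8 members passed the threshold as lower in 4xX2x against 2xX2x, where 1.34% of all probe sets did, and 6 of 8 in 6xX2x against 2xX2x, where 1.3% did. In 6xX2x against 4xX2x, AT1G23960 and AT2G32160 passed as higher, where 1.6% of probe sets did. With the paternal excess crosses averaged and set against the averaged maternal excess crosses, all but AT2G32160 passed as higher, where 3.37% of probe sets did. The averaged difference ran from 6.00 ± 0.31 for AT2G02515 and 5.57 ± 0.27 for AT4G35725 to 2.66 ± 0.16 for AT1G23960 and 1.5 ± 0.43 for AT2G32160. Nothing is read from these counts, because the members were selected there.

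In paternal excess 2xX4x none of the 8 genes passed the threshold against 2xX2x, where 0.0751% of probe sets were called higher and 0.00626% lower. At an unadjusted p below 0.05, 4 genes were higher and 0 lower, where 2.8% of all probe sets had such a p in either direction. These were AT2G02515 (1.98 ± 0.44, limma adjusted p = 0.313), AT4G35725 (1.83 ± 0.39, adjusted p = 0.265), AT3G13370 (1.69 ± 0.43, adjusted p = 0.53) and AT5G26250 (1.51 ± 0.47, adjusted p = 1). For each of the 4 genes both 2xX4x arrays were above both 2xX2x arrays, but how many of all probe sets had this order was not counted. The 2xX4x and 2xX2x arrays had a part in the choice of the members, so nothing is read from these 4 genes being higher. AT1G23960 differed by 0.00 ± 0.23. The paper called AT2G02515 and AT4G35725 up in 2xX4x and 2xX6x, from these arrays and from an Agilent platform. Its cut-off was on the size of the change, which is another measure than the adjusted p used here.

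In the stronger paternal excess, 2xX6x, both unknown protein genes were called higher. The 2xX6x and 2xX2x arrays had a part in the choice of the members, which can enlarge such differences. AT2G02515 was 10-fold higher than in 2xX2x (3.33 ± 0.44, limma adjusted p = 0.00305) and AT4G35725 was 7.64-fold higher (2.93 ± 0.39, adjusted p = 0.00305). Across all probe sets 0.532% were called higher and 0.419% lower. Without replicate 1 of 2xX6x the adjusted p of AT2G02515 was 0.0506. AT5G26250 (1.49 ± 0.47, adjusted p = 0.409) and AT3G13370 (1.13 ± 0.43, adjusted p = 0.658) did not pass. AT2G44250 was at -2.14 ± 0.45 with an adjusted p of 0.061, and it passed as lower in 4 of 21 alternative settings. The difference of AT3G03410 was -0.95 ± 0.41 (adjusted p = 0.888).

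From 2xX4x to 2xX6x no member passed, where 0.188% of probe sets were called higher and 0.15% lower. At an unadjusted p below 0.05, 2 members were higher and 2 lower, where 3.7% of all probe sets had such a p in either direction. AT3G03410 had the largest difference (-1.84 ± 0.41, limma adjusted p = 0.152), and it passed with array weights (adjusted p = 0.0342) and without replicate 1 (0.039) or replicate 2 (0.0419) of fis1X2x, which enters only through the shared estimate of the spread. AT2G44250 differed by -1.64 ± 0.45 (adjusted p = 0.382), AT2G02515 by 1.35 ± 0.44 (adjusted p = 0.658) and AT4G35725 by 1.1 ± 0.39 (adjusted p = 0.818). AT5G26250 stayed level at -0.02 ± 0.47, with a 95% interval from -1.06 to 1.02.

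**Figure D3:**
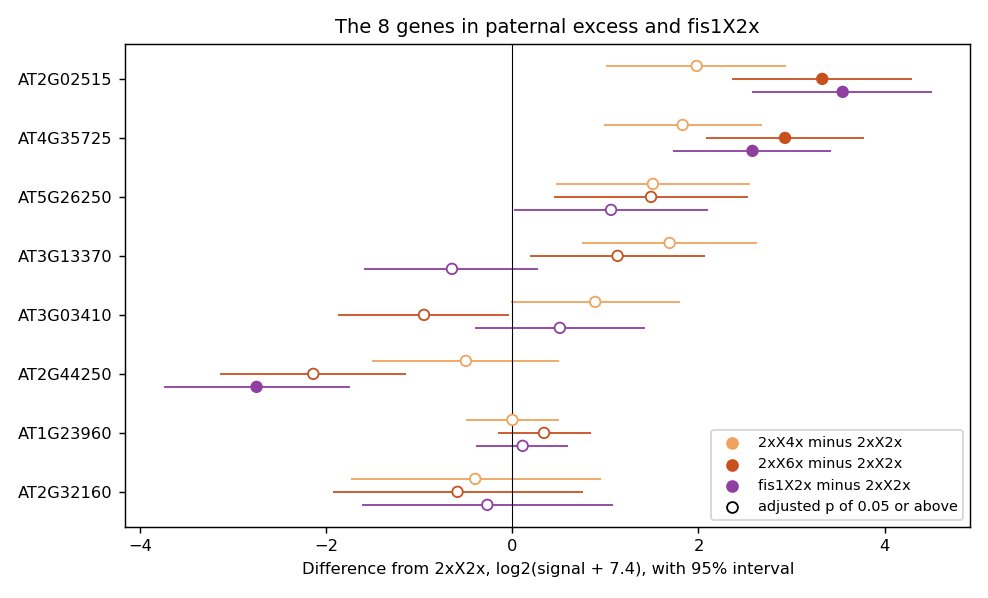
Difference of the 8 genes from 2xX2x in 2xX4x, 2xX6x and fis1X2x, on the log2(signal + 7.4) scale. Bars are 95% intervals from limma, and filled points passed an adjusted p of 0.05. Filled points are AT2G02515 and AT4G35725 in 2xX6x and fis1X2x and AT2G44250 in fis1X2x.

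In fis1X2x, whose arrays had no part in the choice, 2 of the 8 genes rose and 1 fell against 2xX2x. The 2xX2x arrays did have a part in the choice, which can shift these differences. AT2G02515 rose 11.7-fold (3.55 ± 0.44, limma adjusted p = 0.0014) and AT4G35725 rose 5.96-fold (2.58 ± 0.39, adjusted p = 0.00464), where 0.901% of all probe sets were called higher. AT2G44250 fell (-2.75 ± 0.45, adjusted p = 0.00939), where 1.28% were called lower. That fall was no longer called with an offset of 1 (adjusted p = 0.132), without replicate 1 of 2xX2x (0.0693) or without replicate 1 of fis1X2x (0.0678). AT5G26250 was at 1.06 ± 0.47 (adjusted p = 0.402) and AT3G13370 at -0.65 ± 0.43 (adjusted p = 0.615). AT3G03410 was at 0.51 ± 0.41 (adjusted p = 0.7), and the intervals of AT1G23960 (-0.39 to 0.60) and AT2G32160 (-1.62 to 1.08) spanned 0.

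Set directly against 2xX6x, fis1X2x gave no called member, where 0.0813% of probe sets were called higher and 0.113% lower. At an unadjusted p below 0.05, 1 member was higher and 1 lower, where 8.0% of all probe sets had such a p in either direction. These were AT3G03410 (1.47 ± 0.41, limma adjusted p = 0.286) and AT3G13370 (-1.78 ± 0.43, adjusted p = 0.166). For AT2G02515 the difference was 0.22 ± 0.44, with a 95% interval from -0.74 to 1.19, and for AT4G35725 -0.36 ± 0.39, with an interval from -1.21 to 0.49.

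The unfertilised msi1 siliques were compared by size alone. AT5G26250, AT3G13370, AT3G03410, AT2G44250 and AT1G23960 were at least 1 on the log2 scale below both 2xX2x arrays, as were 6.04% of probe sets. No member was at least 1 above both, against 3.52% of probe sets. AT3G13370 and AT3G03410, both at 0.6, differed from the 2xX2x arrays by -4.31 and -4.44 and by -4.24 and -3.96. For AT2G02515 the differences were 1.27 and 0.63, for AT4G35725 0.74 and -0.11 and for AT2G32160 -0.19 and -0.67. With no replicate there is no test of these differences. Genotype, lack of fertilisation and time of harvest cannot be told apart in them.

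Over the 13 arrays, log2 values of AT2G02515, AT4G35725 and AT5G26250 had pairwise Pearson correlations of 0.92 to 0.96. Among all 6 genes low in both maternal crosses the correlations ran from 0.46 to 0.96, and between the pair and these 6 from 0.38 to 0.67. The arrays share groups, and the low values in 4xX2x enter every one of these correlations. The members were also chosen on most of these arrays, so high correlations among them follow in part from the choice. Outside the members, the single-gene probe sets most like their mean were AT1G09510 (r = 0.98), AT4G27890 (0.97), AT3G21410 (0.96), AGL33 (0.96), a MADS-box transcription factor gene, and AT2G19970 (0.96). AT2G19970 had mean signals of 2.8 in 6xX2x, 2.95 in 4xX2x, 370 in 2xX2x, 840 in 2xX4x, 642 in 2xX6x and 596 in fis1X2x, and a signal of 2.6 in msi1. For AT5G26250 alone the closest were AT3G21410 (0.97), AT1G09510 (0.96) and AT3G57160 (0.96).

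Among the loci next to the members, AT2G44240, which directly precedes AT2G44250, was also low in both maternal excess crosses. Its signals were 28.6 and 14.3 in 6xX2x, 10.3 and 6.4 in 4xX2x and 139.5 and 168.7 in 2xX2x. They were 127.7 and 193.9 in 2xX4x, 99.3 and 74.9 in 2xX6x, 43.0 and 66.0 in fis1X2x and 1.4 in msi1. The maternal excess and 2xX2x arrays did not overlap, and AT2G44240 fell in 4xX2x (-3.36 ± 0.34, limma adjusted p = 0.000653) and in 6xX2x (-2.52 ± 0.34, adjusted p = 0.00402). In fis1X2x it was at -1.40 ± 0.34 (adjusted p = 0.0668). Whether the probes of the neighbours read each other's transcript was not tested. No other neighbour with a single-gene probe set that passed the filter was called in 4xX2x, 6xX2x or fis1X2x.

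The other measured genes of sugar transport and cell wall invertase were set beside AT5G26250. Of 44 genes listed, 21 had a single-gene probe set, and 19 of the 20 besides AT5G26250 passed the filter. One of them, SWEET8 of the sugar efflux transporter family, was lower in both maternal excess crosses and higher in 2xX6x and fis1X2x. Its signals were 44.9 and 22.0 in 6xX2x, 20.2 and 13.9 in 4xX2x, 89.7 and 116 in 2xX2x and 182 and 234 in 2xX4x. They were 580 and 479 in 2xX6x, 306 and 481 in fis1X2x and 126 in msi1.

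SWEET8 fell in 4xX2x (-2.17 ± 0.33, limma adjusted p = 0.00605) and in 6xX2x (-1.48 ± 0.33, adjusted p = 0.0461). These falls were called in 19 and 5 of 21 alternative settings. It rose in 2xX6x (2.29 ± 0.33, adjusted p = 0.0062) and in fis1X2x (1.84 ± 0.33, adjusted p = 0.0155), called in 19 and 17 of 21. In fis1X2x SWEET7 also rose (1.83 ± 0.36, adjusted p = 0.0238) and STP5, a monosaccharide transporter gene, fell (-1.15 ± 0.24, adjusted p = 0.0323), called in 17 and 13 of 21. The remaining 16 genes passed in none of these comparisons, and no gene of the list passed in 2xX4x. The median difference of the 19 genes was -0.06 in 4xX2x, against -0.02 for all probe sets, and 0.37 in 6xX2x, against -0.03.

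**Figure D4:**
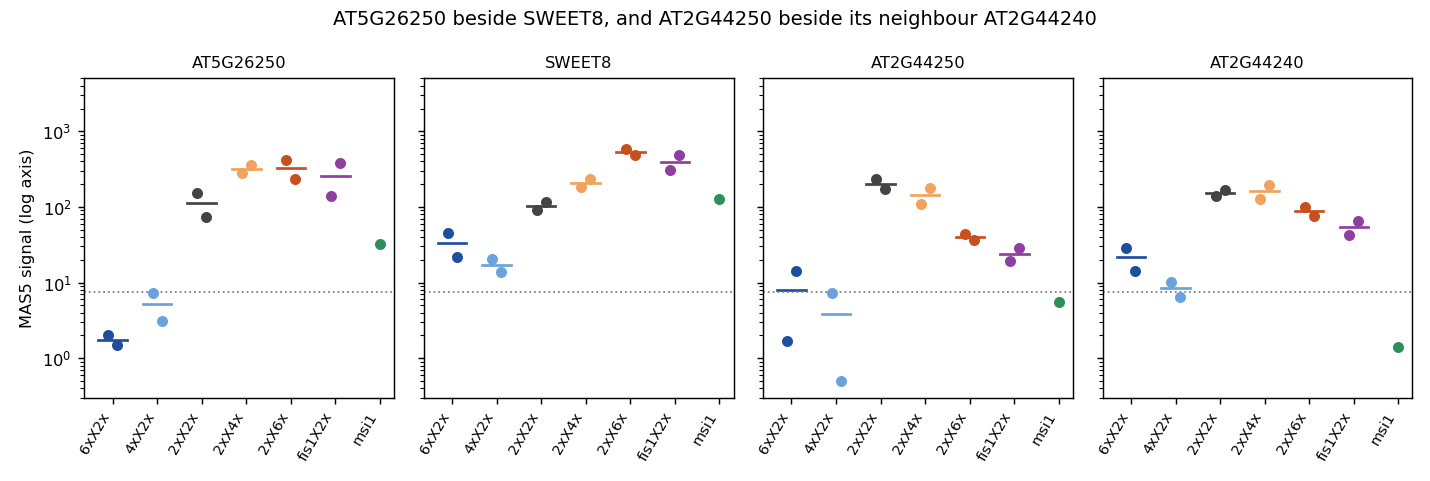
MAS5 signal (log axis) per array of AT5G26250 and SWEET8, and of AT2G44250 and its neighbour AT2G44240. Points are arrays, bars are means of 2 arrays, and the dotted line is the offset of 7.4. All 4 genes are lower on the maternal excess arrays than on the 2xX2x arrays.

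Few tissue markers were measured by single-gene probe sets. Of 17 endosperm genes 4 were measured (AGL62, AGL92, AGL80 and IKU2), of 12 seed coat genes 1 (BAN), of 7 pollen genes 2 (ANX1 and ANX2), and of the embryo and silique wall lists 0. Summed endosperm marker signals were 34.1 to 67.3 in 4xX2x, 76.5 to 115 in 6xX2x and 79.5 to 92.9 in 2xX2x. They were 41.5 to 43.9 in 2xX4x, 114 to 124 in 2xX6x and 67.5 to 71 in fis1X2x. AGL80 alone gave 45.3 and 66.2 in 2xX2x. In 4xX2x AGL80 differed from 2xX2x by -0.73 ± 0.5 (limma adjusted p = 0.649). AGL62 differed by -0.01 ± 0.43, from signals of 3.2 and 10.7 in 4xX2x and 8.6 and 4.7 in 2xX2x. These signals lie near the offset, so the difference does not show whether AGL62 changed. None of the markers that passed the filter was called in 4xX2x, 6xX2x, 2xX4x or 2xX6x. AGL62, which delays endosperm cell formation, rose in fis1X2x (2.01 ± 0.43, limma adjusted p = 0.0356), called in 7 of 20 alternative settings. AGL80 went the other way in fis1X2x and was not called (-1.87 ± 0.5, adjusted p = 0.0971). The other endosperm markers, AGL92 and IKU2, did not pass the filter. BAN, a seed coat enzyme gene, ran from 640 to 1839 over all arrays, and the pollen genes summed to 1.7 to 18. The part of tissue make-up in the members' differences was not tested.

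Some arrays stood apart. The actin control had a 3' to 5' signal ratio of 17.3 on replicate 1 of 6xX2x, against 0.561 to 4.44 elsewhere, and without that array the 6 genes still differed from 2xX2x by -3.85 to -3.16. On replicate 2 of 4xX2x the median of chromosome 2 probe sets was shifted by -0.191 on the log2 scale against the other chromosomes. Without it the chromosome 2 members AT2G02515, AT2G44250 and AT2G32160 differed from 2xX2x by -3.82, -3.84 and -4.12 in 4xX2x.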

How the data were processed

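Transcripts were measured in 13 samples on 1-colour Affymetrix ATH1 arrays. The deposited signal intensities were made by the authors with MAS5 (Affymetrix GCOS), on a linear scale with the same trimmed mean on every array. The table holds 22810 probe sets and no detection calls. Genes came from the platform annotation and loci from the TAIR10.1 gene table.

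After leaving out 64 control probe sets, signals were taken as log2(signal + 7.4), the offset being the 20th percentile of all signals. A probe set was kept where at least 2 arrays had it above their 40th percentile, which left 15982 probe sets with all 8 members. limma 3.58.1 (R 4.3.3; lmFit, contrasts.fit, eBayes with trend) was fitted with 1 mean per group to the 12 replicated arrays, with two-sided p-values, Benjamini-Hochberg adjustment over all kept probe sets and a threshold of 0.05. The steps were tested on simulated data. The msi1 array was compared by size. The number of arrays limits the precision.

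The members and gene lists were chosen with earlier results of these data known. The text names the members, their nearest measured neighbours, list genes that passed, the probe sets most correlated with the members, and markers. The contrast of 6xX2x with 4xX2x, planned as a test, is given without p for the members because its arrays chose them. Lists by protein family were not used, since the gene table has no descriptions. Replicate numbers of the labels were not taken as pairs in the main fit. Alternatives changed the offset, filter, normalization, array weights, arrays fitted and replicate block, and left out each replicate in turn.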

Additional observations from a re-analysis of the deposited data

Results flagged for a closer look

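AT1G23960 and AT2G32160 differed between the maternal excess crosses. Both arrays of 4xX2x were far below 2xX2x, and the 6xX2x arrays were not. The difference of 6xX2x from 4xX2x was 4.69 on the log2 scale for AT1G23960 and 3.67 for AT2G32160. The hexaploid seed parent was Col-1 and the tetraploid one C24, so ploidy and accession cannot be told apart in this difference.

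AT3G03410 lay on opposite sides of the balanced cross in the paternal excess crosses, with both 2xX4x arrays above and both 2xX6x arrays below the 2xX2x arrays. Neither difference from 2xX2x was called (0.89 ± 0.41 in 2xX4x and -0.95 ± 0.41 in 2xX6x). The share of all probe sets with such an order was not counted. The difference of 2xX6x from 2xX4x was -1.84, which did not pass (limma, adjusted p = 0.152). No group had the 4 samples that a search for outlying samples needs.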

How the results depend on the processing

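Each of 72 member differences was recomputed in 21 other settings. None that was called changed direction. In the comparisons with a p, 4 values lost their call, 7 gained one, and 15 uncalled values changed sign. Members called higher in 2xX6x against 2xX2x numbered 2, and 1 to 2 with a replicate left out. Those called lower numbered 0, but 1 with an offset 2 times as large and 1 with array weights, and 0 to 1 with a replicate left out. AT2G44250, lower in fis1X2x, made the count 1, and it was 0 with an offset of 1 and 0 to 1 with a replicate left out. From 2xX4x to 2xX6x the count lower was 0, but 1 with array weights and 0 to 1 with a replicate left out. Described only, 6xX2x against 4xX2x (its arrays chose the members) had 2 higher, or fewer with a replicate left out. The cause of these changes was not tested.

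The 5 called member differences had adjusted p-values from 0.000646 to 0.132 over the settings. With an offset of 1, falls in 4xX2x reached -6.70. The count of all probe sets called changed by over 1.5 times in every comparison. In 2xX4x against 2xX2x it was 13, from 0 to 28. In 2xX6x against 2xX2x it was 152, from 65 to 179, and in fis1X2x against 2xX2x 348, from 136 to 356. From 2xX4x to 2xX6x it was 54, from 0 to 123, and from 2xX6x to fis1X2x 31, from 12 to 41. It was 348, from 87 to 375, in 4xX2x, 369, from 104 to 600, in 6xX2x, 474, from 104 to 706, in 6xX2x against 4xX2x, and 891, from 463 to 1059, in paternal against maternal excess. The lowest count of each comparison came from fitting the compared arrays alone, an offset of 1, or leaving out a replicate of a compared group. With the compared arrays alone, SWEET8 lost its calls in 4xX2x (limma adjusted p = 0.0621), 6xX2x (0.206) and fis1X2x (0.071). SWEET7 (0.0756) and STP5 (0.211) lost theirs in fis1X2x. In 6xX2x SWEET8 was called in only 5 of 21 settings. The SWEET8 call was lost in 4xX2x without replicate 2 of 2xX2x (adjusted p = 0.0517), in 2xX6x without replicate 1 of 2xX2x (0.0623) or of 2xX6x (0.0831), and in fis1X2x without replicate 1 (0.101) or 2 (0.0517) of 2xX2x or replicate 2 of fis1X2x (0.119). The SWEET7 call was lost without replicate 1 of 2xX2x (0.138) and without either fis1X2x replicate (0.134 and 0.0757). The STP5 call was lost without either replicate of 2xX2x (0.127 and 0.16), 2xX4x (0.0703 and 0.0705) or 2xX6x (0.055 and 0.0545), or without replicate 2 of fis1X2x (0.2).

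The differences of replicate 1 from replicate 2 were correlated between groups. Of 15 correlations, 6 were above 0.1 (-0.237 to 0.412, median 0.0627). These values do not settle whether same-numbered replicates share an effect, and the main fit did not take the numbers as pairs. With the replicate block the members called were the same in number in every comparison, and 153 probe sets were called in 2xX6x against 2xX2x. Where signals ended near or below the offset, they limit the size of the fall, and 2 arrays per group limit what can be called.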
